A study of Homo sapiens with 16 samples.

Results

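The 10 genes described here encode chemokines that epithelial cells can make, measured across 4 human breast cancer cell lines: CXCL14, CXCL1, CXCL2, CXCL3, CXCL5, CXCL8, CXCL10, CXCL16, CCL20 and CCL28. They were found by symbol and are 10 of the 58735 genes in the count table. The list was selected on measured levels in these same libraries, with the height of CXCL14 in day 20 HCC1806 spheroids over the monolayer already known. The contrast of day 20 HCC1806 spheroids with the HCC1806 monolayer is therefore given as a description without p-values, and no other p-value here is independent support for the choice of genes.

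HCC1806 and BT474 were each profiled as monolayers and as spheroids at day 10 and day 20 after seeding. CAL148 and ZR-75-30 were profiled as monolayers alone. HCC1806 and CAL148 are known as triple-negative lines and BT474 and ZR-75-30 as HER2-amplified luminal lines, which the sample labels do not state. Each of the 8 groups had 2 libraries of polyadenylated RNA, 16 in all. HCC1806 and ZR-75-30 were grown in RPMI medium, BT474 and CAL148 in Dulbecco's medium, both with 10% fetal serum. Each line stands for 1 tumour, and no label gives an added gene, drug or cytokine for any group. How the spheroids were formed and whether replicates were separate cultures are not given in the labels, so p-values measure the spread between these libraries, which may be technical.

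Chemokines are small secreted proteins that guide migrating cells along a gradient. CXCL1, CXCL2, CXCL3, CXCL5 and CXCL8 carry the Glu-Leu-Arg motif before their paired cysteines, bind CXCR2 (CXCL8 also CXCR1) and are best known for drawing neutrophils. NF-kB is their main known activator in epithelium, downstream of interleukin 1, tumour necrosis factor and Toll-like receptors. CXCL10 is an interferon-induced ligand of CXCR3. CXCL14 is made constitutively by normal keratinocytes and other epithelia. CXCL16 is made as a membrane protein, binds CXCR6 and is released by the protease ADAM10. CCL20 binds CCR6, and CCL28, a mucosal chemokine of mammary gland and gut, binds CCR10 and CCR3.

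The genes CXCL8, CXCL1, CXCL5, CXCL3 and CXCL2 lie in that order in a cluster on chromosome 4 (GRCh38). Gene spans are those of the deposited count table. CXCL8 (ENSG00000169429) spans chr4:73740506-73743716 on the plus strand and CXCL1 (ENSG00000163739) chr4:73869393-73871242 on the plus strand. CXCL5 (ENSG00000163735) spans chr4:73995642-73998779, CXCL3 (ENSG00000163734) chr4:74036589-74038807 and CXCL2 (ENSG00000081041) chr4:74097035-74099293, all 3 on the minus strand. CXCL10 (ENSG00000169245) lies farther along the same chromosome, at chr4:76021117-76023497 on the minus strand. The other 4 genes lie elsewhere. CXCL14 (ENSG00000145824) is at chr5:135570679-135579279 on the minus strand and CCL28 (ENSG00000151882) at chr5:43376645-43412391 on the minus strand. CXCL16 (ENSG00000161921) is at chr17:4733526-4739922 on the minus strand and CCL20 (ENSG00000115009) at chr2:227805739-227817564 on the plus strand.

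The 250 bases before the start of 6 of these genes, from RefSeq (GRCh38.p14), are shown because the duplicated neutrophil-attracting genes share promoter letters while their counts parted, and because CXCL14, the gene with the widest range, holds neither motif in its window. Each runs 5′ to 3′ on the gene's own strand and ends at the base before RefSeq's start, which coincides with the edge of the gene span given above for CXCL1 and CXCL10 and lies inside that span for CXCL2, CXCL3, CXCL8 and CXCL14. Capitals mark the kappaB core GGAATTTCC on either strand, with 1 more G before it where that is present, and, in CXCL10, also the interferon-type match, GAAA and GAAA with any 2 bases between. The CXCL1 window is chr4:73869143-73869392 (plus strand), CXCL2 chr4:74099196-74099445 (minus), CXCL3 chr4:74038690-74038939 (minus), CXCL8 chr4:73740319-73740568 (plus), CXCL10 chr4:76023498-76023747 (minus) and CXCL14 chr5:135578992-135579241 (minus).
CXCL1: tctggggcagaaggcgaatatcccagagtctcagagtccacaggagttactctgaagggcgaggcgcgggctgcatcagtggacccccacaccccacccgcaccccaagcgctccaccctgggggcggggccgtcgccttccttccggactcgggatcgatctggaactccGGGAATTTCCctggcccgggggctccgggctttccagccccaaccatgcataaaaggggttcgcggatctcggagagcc
CXCL2: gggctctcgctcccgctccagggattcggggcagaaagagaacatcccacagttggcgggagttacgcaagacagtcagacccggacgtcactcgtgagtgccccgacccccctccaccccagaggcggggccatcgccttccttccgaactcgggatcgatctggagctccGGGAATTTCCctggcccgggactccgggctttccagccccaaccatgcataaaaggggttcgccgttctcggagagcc
CXCL3: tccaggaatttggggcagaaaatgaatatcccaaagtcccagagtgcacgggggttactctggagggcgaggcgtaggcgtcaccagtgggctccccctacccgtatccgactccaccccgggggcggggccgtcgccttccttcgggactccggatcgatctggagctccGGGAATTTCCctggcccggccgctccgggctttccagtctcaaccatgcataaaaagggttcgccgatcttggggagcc
CXCL8: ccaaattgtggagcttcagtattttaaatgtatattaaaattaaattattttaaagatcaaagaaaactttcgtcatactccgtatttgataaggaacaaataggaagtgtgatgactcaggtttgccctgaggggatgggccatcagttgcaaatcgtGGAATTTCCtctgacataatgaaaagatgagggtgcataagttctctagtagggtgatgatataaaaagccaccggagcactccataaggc
CXCL10: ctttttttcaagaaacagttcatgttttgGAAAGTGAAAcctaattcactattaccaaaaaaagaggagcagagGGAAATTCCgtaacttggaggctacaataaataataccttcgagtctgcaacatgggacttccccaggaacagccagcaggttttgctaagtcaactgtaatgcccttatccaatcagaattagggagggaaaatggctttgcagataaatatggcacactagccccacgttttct
CXCL14: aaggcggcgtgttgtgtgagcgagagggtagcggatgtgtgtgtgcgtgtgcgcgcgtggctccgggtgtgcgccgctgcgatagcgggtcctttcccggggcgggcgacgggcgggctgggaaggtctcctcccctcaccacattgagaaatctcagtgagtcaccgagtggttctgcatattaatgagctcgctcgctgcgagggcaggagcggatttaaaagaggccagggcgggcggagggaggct

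The kappaB core GGAATTTCC, searched on both strands, was found in 6 members' windows: CXCL1, CXCL2, CXCL3, CXCL5, CXCL8 and CXCL10. Of all 35116 RefSeq promoter windows of the same length, 145 (0.413%) held it. The longer form with 1 more G before the core, which thus contains it, was found in CXCL1, CXCL2, CXCL3 and CXCL5 and in 0.142% of all windows. In CXCL1 and CXCL3 the core began 78 bases and ended 70 bases before the start, and in CXCL2 it lay at 77 to 69. The same letters stood at 90 to 82 in CXCL5 and at 91 to 83 in CXCL8, while the CXCL10 match was on the other strand, at 176 to 168. The interferon-type letters, searched on both strands, were in the CXCL10 window alone among the 9 members with a window, at 221 to 212, and in 3.02% of all windows.

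The CXCL14 window held neither of these motifs; it held the AP-1 letters TGAGTCA at 92 to 86 bases before the start. CXCL8 held them on the other strand at 137 to 131, and 4.2% of all windows held them. The TATA letters TATAAA were in the CXCL8 and CCL20 windows and in 10.7% of all windows. The related letters ATAAAA stood at 30 to 25 in CXCL1, CXCL2, CXCL3 and CXCL8 and at 31 to 26 in CXCL5. They were also on the other strand of CCL20, at 115 to 110, and in 14.8% of all windows. The windows of CCL20 and CCL28 held neither the kappaB core nor the interferon-type letters, which says only that these letters are not in these 250 bases. Over aligned columns the CXCL1 and CXCL3 windows were 81.4% identical, CXCL2 and CXCL3 73.3% and CXCL1 and CXCL2 70.4%. The CXCL8 window was 42.0% to 45.4% identical to those of CXCL1, CXCL2, CXCL3 and CXCL5.

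Library totals ran between 29.7 M and 72.5 M counts. Levels are given as CPM, counts scaled to a library of 1 M, and 3 counts, taken here as the floor of detection, were 0.0421 to 0.146 CPM. All 5 epithelial keratin and adhesion markers exceeded 3 counts in all 16 libraries, and the pan-leukocyte gene PTPRC had 0 to 4 counts. The libraries of the HCC1806 monolayer stood apart from each other. Mitochondrial transcripts took 17.8% of replicate 1 and 0.768% of replicate 2, against 1.09% to 2.70% in the HCC1806 spheroids. The SD of the log2 difference between the pair over 15585 protein-coding genes was 1.82, against 0.405 to 0.55 in the spheroid and BT474 pairs. The ZR-75-30 pair (1.03) and the CAL148 pair (0.948) were intermediate, with mitochondrial shares of 1.96% and 20.5% in ZR-75-30. The spheroid levels of the 10 genes in HCC1806 are therefore also given over each monolayer library, while gene lists and other lines are compared with the pair, and the part of the difference between those libraries in the results was not tested.

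**Figure D1:**
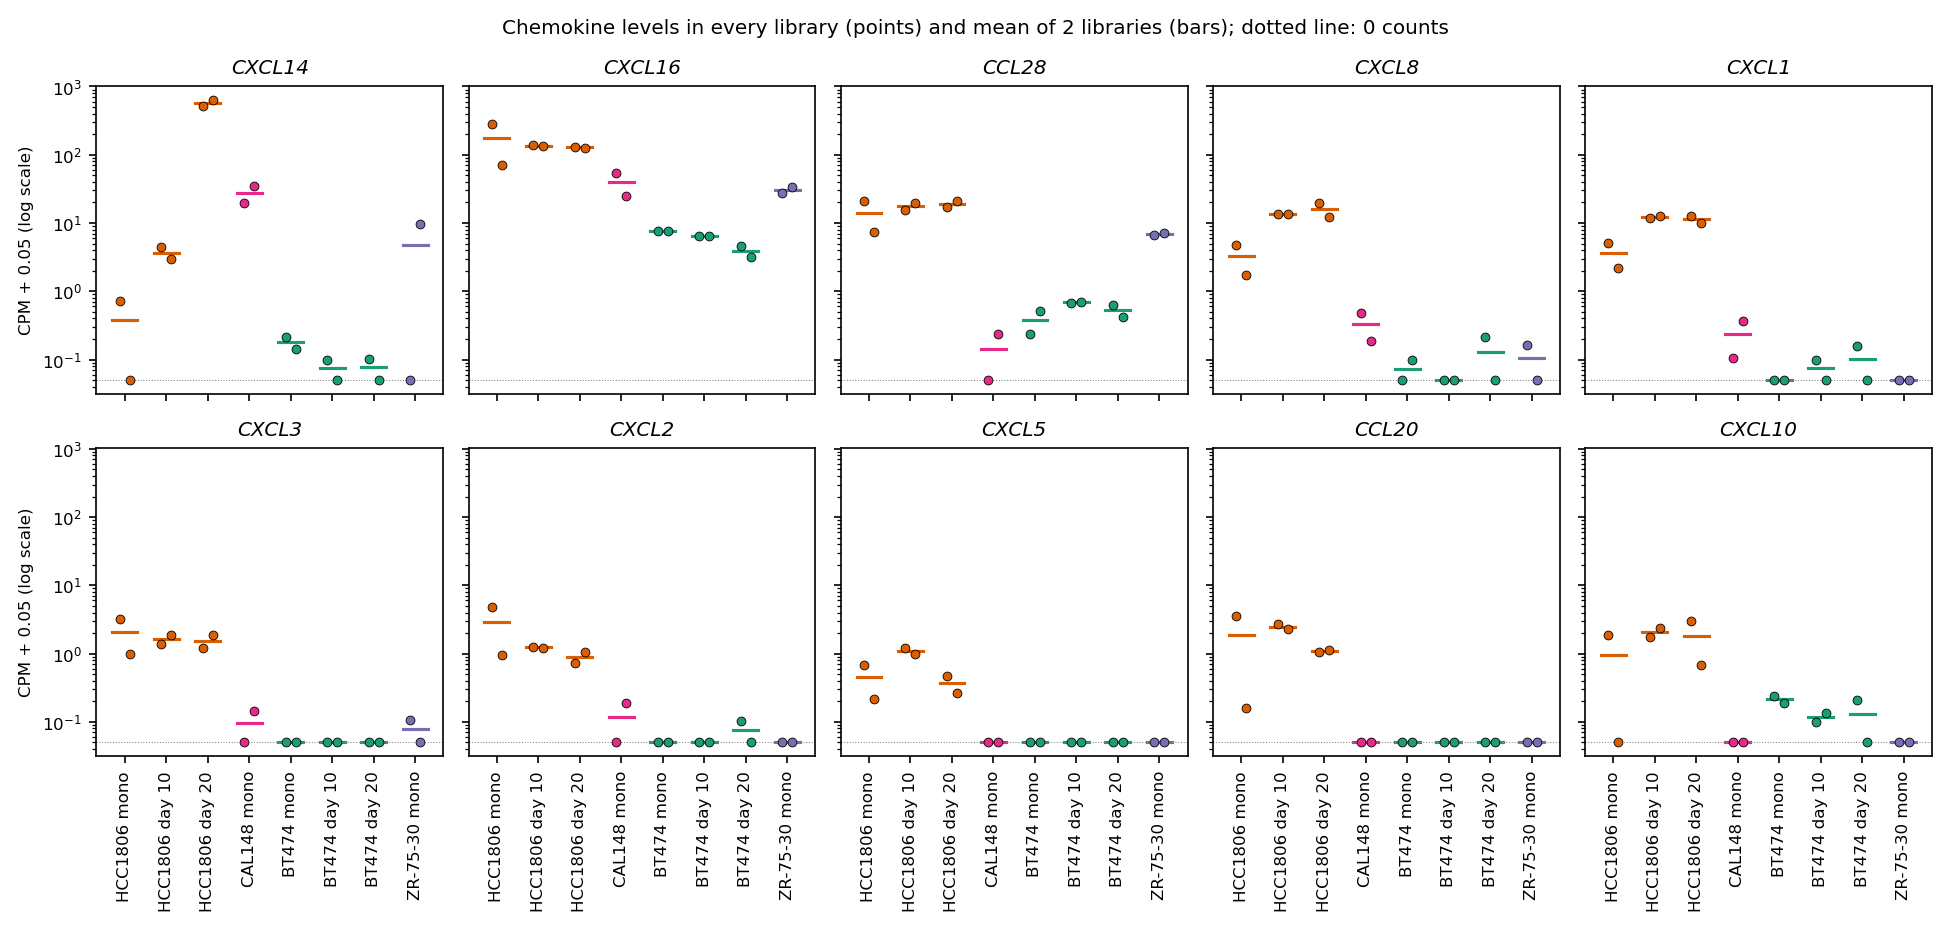
CPM of each of the 10 genes in the 16 libraries (log axis, 0.05 CPM added; points are libraries, bars the mean of 2, the dotted line 0 counts). CXCL14 reaches 517 and 634 CPM in day 20 HCC1806 spheroids, CXCL16 is above the dotted line in every library, and CXCL5 and CCL20 leave it in HCC1806 alone.

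Summed over these 10 selected genes, every HCC1806 library exceeded the libraries of the other lines, and the dominant ligand differed between HCC1806 cultures. The summed level of the 10 genes per kilobase of gene length was 120.0 and 30.1 CPM per kb in the monolayer libraries, 74.7 and 74.3 at day 10, and 335 and 386 at day 20. CXCL14 supplied 0.283% and 0% of that sum in the monolayers, 2.94% and 1.98% at day 10, and 78% and 83.1% at day 20. CXCL16 supplied 64.0% to 83.7% in the monolayer and day 10 libraries and 14.1% and 11.7% at day 20. In the other lines the sum was 1.19 to 29.3 CPM per kb. This order is that of the 10 genes and not of all chemokines. The 34 other chemokine ligands summed to 7.18 and 2.31 CPM, not divided by length, in the HCC1806 monolayers. In the other monolayers they summed to 69.4 and 66.2 CPM (BT474), 137.7 and 155.5 CPM (ZR-75-30) and 5.24 and 11.6 CPM (CAL148). In bulk RNA of this kind, fewer cells of a type and less RNA per cell cannot be told apart.

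**Figure D2:**
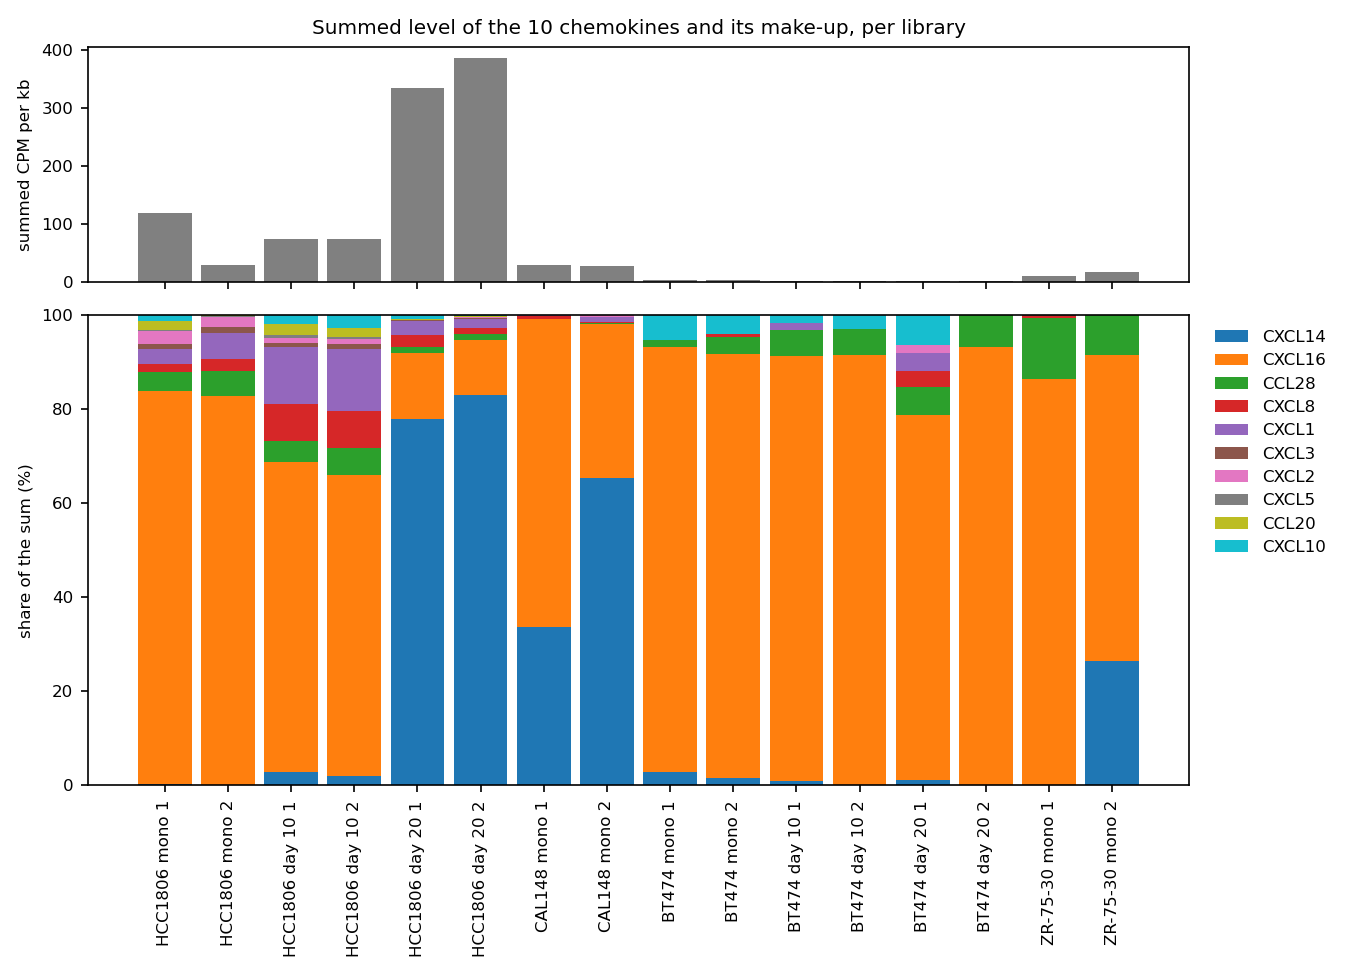
Summed level of the 10 genes (CPM per kb of gene length) in each library, and the percentage of that sum from each gene (stacked bars). CXCL14 takes 78% and 83.1% in the day 20 HCC1806 libraries, where CXCL16 takes 14.1% and 11.7%.

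CXCL14 had 17 counts in 1 HCC1806 monolayer library and 0 in the other, and was among the most abundant mRNAs of the day 20 spheroids. It had 0.671 and 0 CPM in the monolayer libraries, 4.34 and 2.90 CPM at day 10, and 517 and 634 CPM at day 20. The counts were 17 and 0 in the monolayer, 186 and 111 at day 10, and 19764 and 26482 at day 20. The 3 cultures did not overlap. Among 19951 protein-coding genes ordered by CPM per kb, CXCL14 stood at places 12206 and 15179 in the monolayers and 9495 and 10418 at day 10. At day 20 it stood at places 76 and 58.

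The day 20 spheroids had a log2 fold change of 7.31 ± 0.22 (SE) over day 10, the comparison that leaves out the unlike monolayers. It passed the 5% threshold in edgeR's quasi-likelihood test (Benjamini-Hochberg adjusted p = 1.19e-07), which shares the day 20 libraries that made the gene known. In a fit whose spread includes the HCC1806 monolayers the call was lost (7.31, adjusted p = 0.174). That fit called 0 of all 20929 genes tested, so the loss is not particular to CXCL14. CXCL14 was the only member of 10 to pass in the 10-library fit; of all genes tested 6.80% passed, and 3.20% passed as higher at day 20. Over the monolayer the fitted log2 fold change at day 20 was 10.89 ± 1.18. The mean day 20 level was 858 times that of monolayer replicate 1 and, since replicate 2 had no count, at least 7060 times that of replicate 2, taking 3 counts as its floor. The threshold is not applied to the members in that contrast, for which the gene was known. At day 10 the mean level was 5.40 times monolayer replicate 1 and at least 44.4 times replicate 2, and the fitted 3.58 ± 0.98 did not pass (adjusted p = 0.0572).

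Fibroblasts also make CXCL14, so their markers are given beside it. All 9 fibroblast markers, COL1A1, COL1A2, COL3A1, DCN, LUM, PDGFRA, PDGFRB, FAP and THY1, exceeded 3 counts in at least 1 HCC1806 library. Their summed level was 50.5 and 23.3 CPM in the monolayers, 68.8 and 68.2 CPM at day 10, and 100.2 and 84.6 CPM at day 20. COL1A1 carried most of it at every stage, and COL1A2 had 9 and 0 counts at day 20 and 0 counts in the other 4 HCC1806 libraries. Of the 7 fibroblast markers tested, 1, the fibrillar collagen COL3A1, rose between day 10 and day 20 (log2 fold change 3.42, adjusted p = 0.000189), beside 6.80% of all genes called. It had 298 and 217 counts at day 20, against 21 and 28 at day 10. DCN had 32 and 21 counts at day 20. The part of these markers in the CXCL14 level was not tested.

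Epidermal differentiation genes, a list of 29 of which 27 were tested, moved over the same days in HCC1806. Between day 20 and day 10, 13 were called higher and 1 lower, beside 6.80% of all genes called and 3.20% called higher, with a median log2 fold change of 1.06 against 0 over all genes. KRT1, the keratin of spinous keratinocytes, had a log2 fold change of 3.98 (adjusted p = 7.13e-06), and DSG1, a desmosomal cadherin of the upper epidermis, of 3.60 (adjusted p = 2.94e-07). KRT13, a mucosal keratin, fell by 0.51 on the log2 scale. Of the 5 basal markers 3 were called higher at day 20 than at day 10, among them KRT14 at 1.41 and EGFR at 0.89. Of the 5 epithelial markers 4 were called lower, among them KRT8 at -0.47 and KRT19 at -0.48.

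The other lines carried CXCL14 at very different levels. CAL148 monolayers had 19.4 and 35.0 CPM (723 and 1524 counts), places 3956 and 2208 among protein-coding genes. ZR-75-30 had 0 CPM in replicate 1 and 9.55 CPM (196 counts) in replicate 2, so the level of that group rests on 1 library, the one with the 20.5% mitochondrial share. BT474 had 0.166 and 0.0943 CPM as a monolayer, 0.0485 and 0 CPM at day 10, and 0.0534 and 0 CPM at day 20. The order of group means was HCC1806 day 20 (575 ± 82.7 CPM, SD, n = 2), CAL148 (27.2 ± 11), ZR-75-30 (4.77 ± 6.75), HCC1806 day 10 (3.62 ± 1.02), HCC1806 monolayer (0.335 ± 0.474) and the BT474 groups. Day 20 HCC1806 and CAL148 stood clear of each other and of the rest, while ZR-75-30 overlapped the HCC1806 groups below it.

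CAL148 carried more CXCL14 than BT474 as monolayers, 2247 counts against 11 (log2 fold change 7.68 ± 1.85, adjusted p = 0.0113). Without either BT474 library the call was lost, at adjusted p = 0.0909 and 0.104, and also in a fit of the 8 monolayer libraries (adjusted p = 0.121). In HCC1806 against ZR-75-30 monolayers CXCL14 had 17 counts against 196, and the fitted -3.94 ± 1.65 did not pass (adjusted p = 0.0794). The day 20 effect differed between HCC1806 and BT474 by 13.07 ± 2.17 on the log2 scale in the interaction test, a value that contains the HCC1806 contrast for which the gene was known. In BT474, day 20 spheroids had 2 counts and monolayers 11. The difference passed the threshold, as did 2.77% of all genes (1.79% as higher in HCC1806). That is no independent test of CXCL14, since the known HCC1806 contrast lies inside the difference. No other member passed. The call of CXCL14 was lost in a fit of all 16 libraries and by limma-voom with quality weights. Leaving out each library in turn gave differences of 11.9 to 19.7.

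On the read level CXCL14 shared no 75-base window with another member. Its exons overlap the antisense transcript AC034206.1 by 95 bases and SLC25A48 by 78 bases on the opposite strand, and the counting strand is not given. AC034206.1 had 0 counts in all 16 libraries. SLC25A48 had 0 and 0 counts in the HCC1806 monolayers, 2 and 0 at day 10, and 91 and 63 at day 20, far below the CXCL14 counts of the day 20 libraries. It had 64 and 141 counts in the BT474 monolayers, against 7 and 4 of CXCL14, and 2 and 9 at day 10 and 14 and 2 at day 20. CAL148 had 100 and 291 counts of it and ZR-75-30 19 and 39. Its part in the CXCL14 comparisons was not tested.

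The 5 neutrophil-attracting ligands were found almost wholly in HCC1806. None of them was called there at day 10 over the unlike monolayers or at day 20 over day 10, so their library values are a description. In all 4 spheroid libraries CXCL8 and CXCL1 were above both monolayer libraries. The share of all genes with such an order was not counted. At day 20 CXCL2, CXCL3 and CXCL5 were between the monolayer libraries or close to the lower one. Outside HCC1806, over 10 libraries, CXCL8 had 34 counts in all, CXCL1 22, CXCL2 8, CXCL3 6 and CXCL5 0.

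CXCL8, the neutrophil attractant also called interleukin 8, had 4.73 and 1.66 CPM in the HCC1806 monolayers, 13.3 and 13.3 CPM at day 10, and 19.8 and 12 CPM at day 20. The spheroid libraries all lay above the monolayers, and day 10 lay inside the day 20 range. The mean level at day 10 was 2.81 times monolayer replicate 1 and 8.04 times replicate 2. At day 20 it was 3.36 and 9.59 times those libraries. The log2 fold change of 2.06 ± 0.83 at day 10 did not pass the threshold (adjusted p = 0.170), and day 20 against the monolayer gave 2.31 ± 0.84. Day 20 differed from day 10 by 0.26 ± 0.32 (adjusted p = 0.743).

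CXCL1, a CXCR2 ligand, had 5.01 and 2.17 CPM in the monolayers, 11.7 and 12.6 CPM at day 10, and 12.8 and 9.88 CPM at day 20. As with CXCL8, every spheroid library was above both monolayer libraries and the days overlapped. The mean level at day 10 was 2.43 times monolayer replicate 1 and 5.59 times replicate 2, and at day 20 it was 2.26 and 5.21 times. The log2 fold change was 1.75 ± 0.77 at day 10 (adjusted p = 0.199) and 1.65 ± 0.77 at day 20. Per kilobase CXCL1 was the more abundant, at 9.38 CPM per kb at day 10 and 8.74 at day 20, against 5.86 and 6.99 CPM per kb for CXCL8.

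CXCL2 and CXCL3, also known as GRO beta and GRO gamma, are CXCR2 ligands too. CXCL2 had 4.81 and 0.897 CPM in the monolayers, 1.21 and 1.15 CPM at day 10, and 0.680 and 1.005 CPM at day 20. The spheroids lay between the monolayer libraries at day 10 and around the lower one at day 20. The mean day 10 level was 0.246 times monolayer replicate 1 and 1.32 times replicate 2, and the day 20 level 0.175 and 0.939 times. CXCL3 had 3.16 and 0.924 CPM in the monolayers, 1.35 and 1.83 CPM at day 10, and 1.15 and 1.84 CPM at day 20, all within the monolayer range. Its mean was 0.504 and 1.72 times those libraries at day 10, and 0.474 and 1.62 times at day 20. The log2 fold changes at day 10 were -1.27 ± 0.90 for CXCL2 (adjusted p = 0.422) and -0.36 ± 0.71 for CXCL3 (adjusted p = 0.805).

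CXCL5, also a CXCR2 ligand, was the least abundant of the group and highest at day 10. It had 0.631 and 0.163 CPM in the monolayers (16 and 6 counts), 1.17 and 0.941 CPM at day 10 (50 and 36 counts), and 0.418 and 0.215 CPM at day 20 (16 and 9 counts). The day 10 libraries did not overlap with the others. The mean day 10 level was 1.67 times monolayer replicate 1 and 6.46 times replicate 2, and the day 20 level 0.502 and 1.94 times. Day 20 stood below day 10 by a log2 fold change of -1.73 ± 0.70, which did not pass (adjusted p = 0.208), and day 10 over the monolayer was 1.42 ± 0.85 (adjusted p = 0.352).

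**Figure D3:**
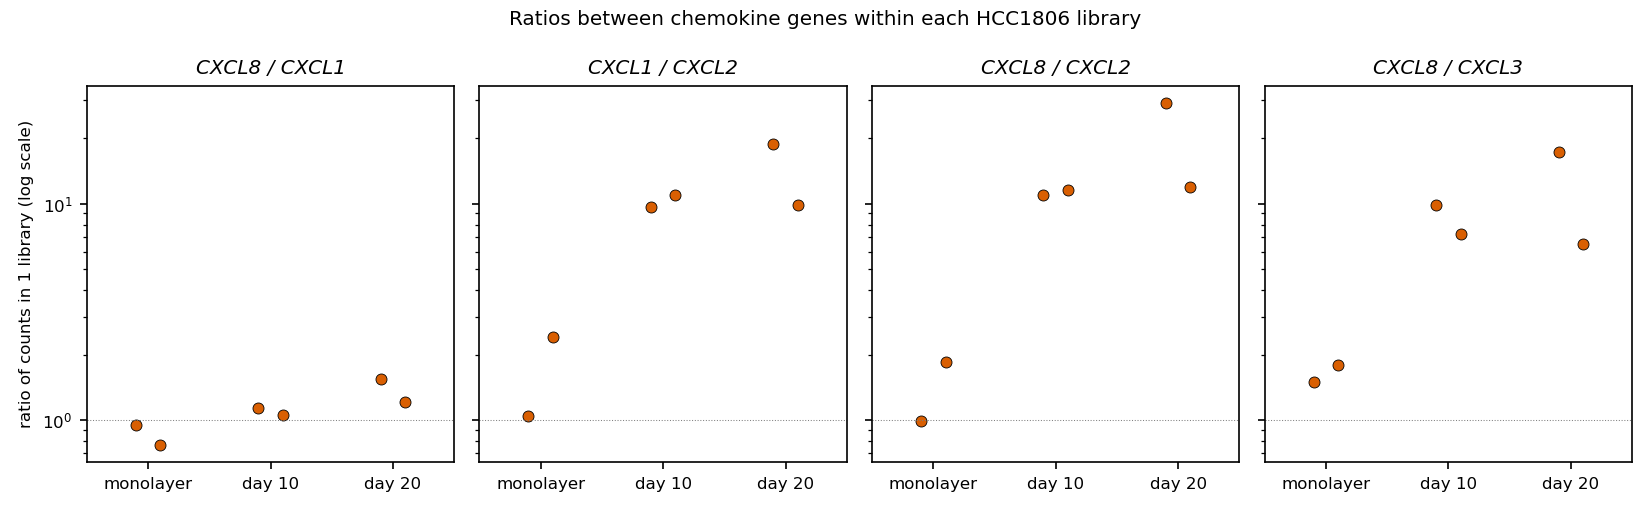
Count ratios of 4 gene pairs within each of the 6 HCC1806 libraries (log axis, points are libraries), for the monolayer, day 10 and day 20. The ratio of CXCL8 to CXCL1 stays between 0.763 and 1.55, while CXCL8 to CXCL2 goes up to 29.2 at day 20.

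The ratio of 2 genes' counts within a library does not depend on its depth or scaling. CXCL1 had 1.04 and 2.42 counts for each CXCL2 count in the HCC1806 monolayers, 9.67 and 10.9 at day 10, and 18.8 and 9.83 at day 20. CXCL8 to CXCL3 stood at 1.5 and 1.79 in the monolayers, 9.86 and 7.27 at day 10, and 17.2 and 6.51 at day 20. In both ratios every spheroid library exceeded both monolayer libraries. CXCL8 to CXCL1 was 0.945 and 0.763 in the monolayers, 1.14 and 1.06 at day 10, and 1.55 and 1.21 at day 20. CXCL3 to CXCL2 was 0.656 and 1.03 in the monolayers, 1.12 and 1.59 at day 10, and 1.69 and 1.83 at day 20. In these ratios too every spheroid library exceeded both monolayer libraries. Over these 6 libraries the ratios of CXCL8 to CXCL1 and of CXCL3 to CXCL2 spanned less than the ratios across those pairs. No test of this grouping was made.

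Exact matches between the transcripts of CXCL1, CXCL2 and CXCL3 were short, and inexact matches were not searched. No 2 members share a 150-base window, the length of 1 read. CXCL2 and CXCL3 share 23 windows of 75 bases (2.01% of those of CXCL2 and 2.3% of those of CXCL3), and CXCL1 and CXCL2 share 3. At 31 bases CXCL1 and CXCL2 share 165 (15.5% of those of CXCL1 and 13.9% of those of CXCL2). At that length CXCL2 and CXCL3 share 100 and CXCL1 and CXCL3 share 30. Of the other genes of the cluster, CXCL6, a CXCR2 and CXCR1 ligand, had 0.316 and 1.63 CPM in the HCC1806 monolayers, 4.27 and 3.77 CPM at day 10, and 1.91 and 2.18 CPM at day 20. It had no count in the 10 libraries of other lines. PF4 had 12 counts and PPBP 2 over all 16 libraries, and PF4V1 none.

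**Figure D4:**
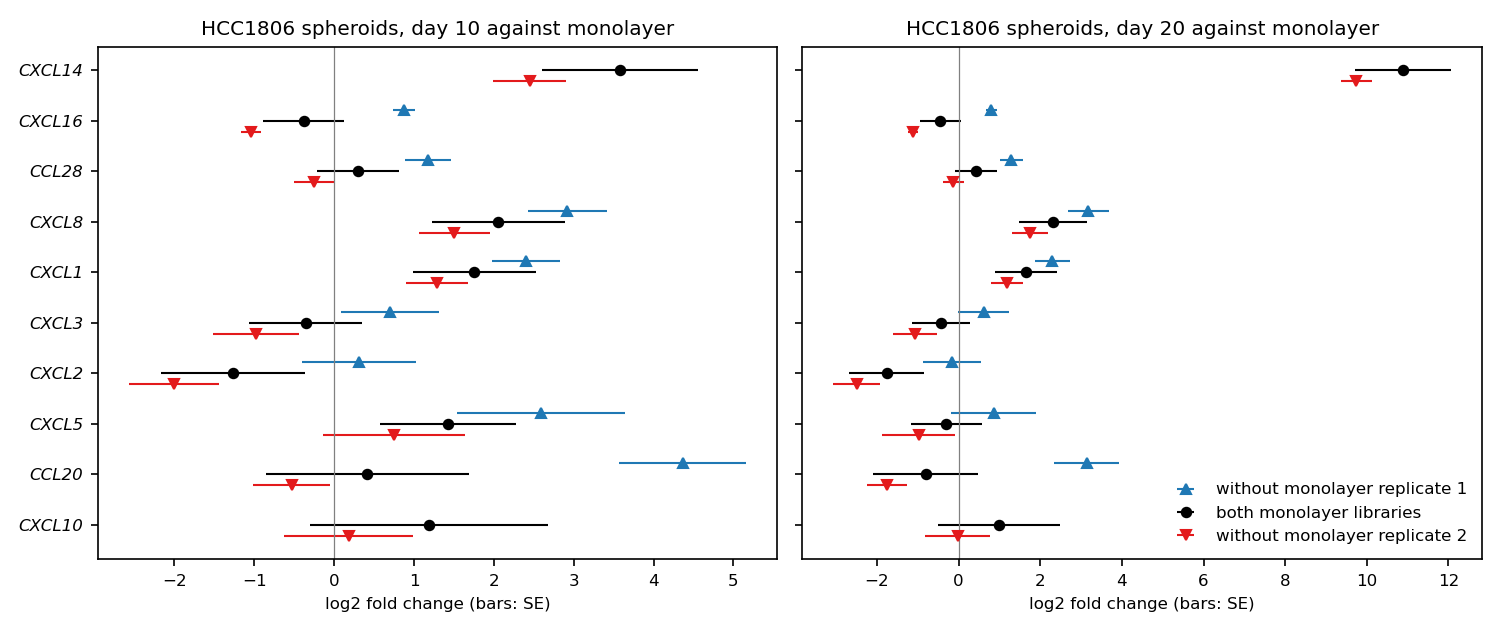
Log2 fold change (bars are SE) of each gene in HCC1806 day 10 and day 20 spheroids over the monolayer, with both monolayer libraries, without replicate 1 and without replicate 2. CXCL1 and CXCL8 stay above 0 in all 3 fits and at day 10 CXCL16, CCL20, CCL28, CXCL2 and CXCL3 lie on either side of 0 depending on the library left out; CXCL14 and CXCL10 without replicate 1 are not drawn because the remaining monolayer library has 0 counts of them.

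None of the 10 members passed the threshold at day 10 against the HCC1806 monolayer by edgeR, against 8.72% of all genes. Unadjusted p was under 0.05 for 2, CXCL14 and CXCL8. DESeq2 called 2, CXCL1 and CXCL8, beside 20.7% of all genes, so nothing is read from that count. Limma-voom with quality weights called none, beside 0.282% of all genes. The counts depended on the monolayer pair. Without monolayer replicate 1, edgeR called 7 of the 10 at day 10 (38.6% of all genes) and 7 at day 20 (40.5%). Without replicate 2 it called 5 at day 10 (52.8%) and 6 at day 20 (53.0%). The members' counts are to be read against these shares. CXCL1 and CXCL8 were called higher in both day 10 fits. CXCL1 had log2 fold changes at day 10 of 2.40 and 1.29 without replicate 1 and without replicate 2, and CXCL8 of 2.92 and 1.51. At day 10 the signs of CXCL16, CCL20, CCL28, CXCL2 and CXCL3 depended on which monolayer library was left out. In each such fit the lone monolayer library is assumed to vary as the other groups do.

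CXCL16, the membrane-bound ligand, was nearly level over the HCC1806 spheroids and, alone among the members, exceeded 3 counts in all 16 libraries. It had 280.5 and 69.6 CPM in the monolayers, 137 and 133 CPM at day 10, and 132 and 126 CPM at day 20. The 4 spheroid libraries lay close together between the 2 monolayer libraries. Day 10 was 0.482 times monolayer replicate 1 and 1.94 times replicate 2, and day 20 was 0.459 and 1.85 times. The log2 fold change of -0.38 ± 0.51 at day 10 did not pass (adjusted p = 0.681). It was 0.87 without replicate 1 and -1.04 without replicate 2. Day 20 against day 10 gave -0.06 ± 0.11 (adjusted p = 0.839). ADAM10, its known sheddase, had 42.7 and 151 CPM in the monolayers, 250.5 and 249 CPM at day 10, and 242 and 226 CPM at day 20.

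In BT474 CXCL16 was lower at day 20 than in the monolayer. It had 7.58 and 7.54 CPM in the monolayer, 6.40 and 6.46 CPM at day 10, and 4.62 and 3.09 CPM at day 20, with no overlap between the 3 cultures. The log2 fold change at day 20 against the monolayer was -0.98 ± 0.14 (edgeR adjusted p = 0.000505), the 1 member called of 10, beside 14.6% of all genes called and 7.24% called lower. At day 10 it was -0.24 ± 0.13 (adjusted p = 0.276). Between day 20 and day 10 it was -0.74 ± 0.14 (adjusted p = 0.0542); without day 20 replicate 1 this passed, at -1.05. A fit that keeps the HCC1806 monolayers in the estimate of spread lost the day 20 call (adjusted p = 0.86), and called 0.234% of all genes. The difference between the lines in the day 20 effect, 0.52 ± 0.73, did not pass (adjusted p = 0.773).

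Among monolayers CXCL16 was highest in HCC1806 (175 ± 149 CPM, SD, n = 2), followed by CAL148 (39.3 ± 20.3), ZR-75-30 (30.3 ± 4.25) and BT474 (7.56 ± 0.0272). CAL148 and ZR-75-30 overlapped and the others did not. CAL148 had 53.6 and 25.0 CPM, against 7.58 and 7.54 CPM in BT474, a log2 fold change of 2.38 ± 0.54 (adjusted p = 0.0081) that lost its call without either BT474 library or without CAL148 replicate 1 (adjusted p between 0.0601 and 0.0712). HCC1806 against ZR-75-30 gave 2.53 ± 0.54 (adjusted p = 0.00334), over 27.3 and 33.3 CPM in ZR-75-30. The exons of CXCL16 overlap MED11 on the opposite strand by 85 bases; MED11 had 155 to 510 counts a library.

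CXCL10, the interferon-induced ligand, was scarce and uneven. It had 1.82 and 0 CPM in the HCC1806 monolayers (46 and 0 counts), 1.73 and 2.35 CPM at day 10, and 2.93 and 0.622 CPM at day 20. All 3 cultures overlapped. Day 10 was 1.12 times monolayer replicate 1 and at least 25.0 times replicate 2, with a fitted log2 fold change of 1.19 ± 1.49 (adjusted p = 0.661). Day 20 was 0.978 times monolayer replicate 1 and at least 21.8 times replicate 2. BT474 had 0.190 and 0.141 CPM as a monolayer, 0.0485 and 0.0842 CPM at day 10, and 0.160 and 0 CPM at day 20, 6 to 14 counts a group. CAL148 and ZR-75-30 had no count. Day 20 against day 10 in HCC1806 gave -0.20 ± 0.65 (adjusted p = 0.934). In BT474 day 10 against the monolayer gave -1.22 ± 1.08 (adjusted p = 0.547, 8 counts against 14).

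CCL20, the CCR6 ligand, was found in HCC1806 alone, with no count in the other 10 libraries. It had 3.55 and 0.109 CPM in the monolayers (90 and 4 counts), 2.64 and 2.22 CPM at day 10, and 0.993 and 1.08 CPM at day 20. The monolayer libraries lay at both ends, and day 20 lay below day 10 without overlap. Day 10 was 0.684 times monolayer replicate 1 and 22.4 times replicate 2, and day 20 was 0.292 and 9.52 times. The log2 fold change of day 20 over day 10 was -1.22 ± 0.44 and did not pass (adjusted p = 0.149, unadjusted 0.0184). CCR6, its receptor, had no count in the 6 HCC1806 libraries.

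CCL28, the mucosal ligand, was steady in HCC1806 spheroids and present in ZR-75-30. It had 21.0 and 7.31 CPM in the HCC1806 monolayers, 15.3 and 19.6 CPM at day 10, and 17.4 and 20.7 CPM at day 20. The spheroid libraries all lay between the monolayer libraries. Day 10 was 0.833 times monolayer replicate 1 and 2.39 times replicate 2, and day 20 was 0.907 and 2.60 times. Day 20 against day 10 gave 0.13 ± 0.22 (adjusted p = 0.826). ZR-75-30 had 6.65 and 7.06 CPM, below all HCC1806 libraries. CAL148 had 0 and 0.184 CPM, and HCC1806 against ZR-75-30 gave 1.04 ± 0.68 (adjusted p = 0.25).

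In BT474 CCL28 had 0.190 and 0.471 CPM as a monolayer (8 and 20 counts), 0.631 and 0.646 CPM at day 10 (26 and 46 counts), and 0.588 and 0.366 CPM at day 20 (22 and 14 counts). Day 10 lay above both monolayer libraries and day 20 overlapped them. The log2 fold change at day 10 was 0.94 ± 0.39 (adjusted p = 0.147). By edgeR no member passed in BT474 at day 10, beside 12.2% of all genes. CCL28 alone had an unadjusted p under 0.05, and DESeq2 called none, beside 14.9% of all genes. CXCL14 had 2 counts at day 10 against 11 in the monolayer, a depth-scaled ratio of 0.137 with an exact 95% counting interval of 0.0147 to 0.626. Between day 20 and day 10 no member passed either, beside 0.281% of all genes. CXCL16 and CXCL8 had unadjusted p under 0.05 there. CXCL8 had 6 counts against 0, all 6 from day 20 replicate 1, with 0 in replicate 2. DESeq2 called CXCL16, beside 1.32% of all genes. No member passed the test of a line difference in the day 10 effect, beside 1.35% of all genes. CXCL14 alone had an unadjusted p under 0.05. DESeq2 and limma-voom called none, beside 10.2% and 0.0239% of all genes.

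Between monolayers of lines in the same medium, the members split by line. In HCC1806 against ZR-75-30, 7 of 10 were called higher and none lower, beside 39.0% of all genes called and 22.8% called higher, with a median log2 fold change of 0.216 over all genes. They were CXCL1, CXCL2, CXCL3, CXCL5, CXCL8, CXCL16 and CCL20. All of these but CXCL16 had 0 to 4 counts in each ZR-75-30 library and entered the fit through HCC1806 libraries, so the count is a description. CXCL1 had 207 counts against 0, at least 62.7-fold (adjusted p = 0.00187), CXCL2 155 against 0, at least 46.9-fold (adjusted p = 0.00642), and CCL20 94 against 0, at least 28.5-fold (adjusted p = 0.0277). CXCL3 had 114 against 2 counts, a ratio of 51.8 (exact 95% counting interval 14.0 to 433). CXCL8 had 181 against 4 counts (log2 fold change 5.51 ± 1.23, adjusted p = 0.00522), and CXCL5 22 against 0, at least 6.66-fold (adjusted p = 0.0224). CXCL10 had 46 against 0 counts, all from 1 HCC1806 library, and did not pass (adjusted p = 0.0548). The floor of 3 counts is taken over the group of 2 libraries. All 7 calls were lost when limma-voom weighted the libraries by quality, where 7.92% of all genes were called. Without either ZR-75-30 library the calls of CXCL5 and CCL20 were lost (adjusted p between 0.0581 and 0.111). The lines' markers differed in the same contrast, with all 5 basal markers called higher and all 6 luminal and receptor markers called lower in HCC1806.

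In CAL148 against BT474, 2 of 10 were called, CXCL14 and CXCL16, both higher, beside 24.0% of all genes called and 10.2% called higher. CXCL1 had 16 counts against 0, at least 5.59-fold (adjusted p = 0.0565), and CXCL8 22 against 2, a ratio of 11.5 (exact 95% counting interval 2.83 to 101). CXCL2 had 6 against 0 counts and CXCL3 4 against 0. CXCL10 had 0 against 14 counts, at least 4.46-fold lower (adjusted p = 0.208). CXCL5 and CCL20 had no count in either line, and CCL28 gave -1.75 ± 0.90 (adjusted p = 0.192).

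Receptors for these ligands were mostly low. CXCR3 and ACKR1 had no count in any of the 16 libraries. CXCR2, the receptor of the neutrophil-attracting ligands, had 2.05 and 0.163 CPM in the HCC1806 monolayers, 1.59 and 0.654 CPM at day 10, and 0.889 and 1.15 CPM at day 20. Of 23 receptor genes 14 were tested, and 1 was called at each spheroid age in HCC1806 against the monolayer, beside 8.72% of all genes at day 10 and 11.1% at day 20 (median log2 fold change of the 14, 0.148 at day 10, against 0 over all genes). It was ACKR3, a scavenging receptor of CXCL12, with 63.0 and 61.4 CPM in the monolayers, 262 and 254 CPM at day 10, and 220 and 237 CPM at day 20 (log2 fold change 2.04 ± 0.18 at day 10, adjusted p = 0.00139). In BT474 the 1 receptor called at day 10, beside 12.2% of all genes, was CXCR4, the signalling receptor of CXCL12, with 9.91 and 10.1 CPM in the monolayer, 28.9 and 28.5 CPM at day 10, and 20.2 and 19.7 CPM at day 20 (1.51 ± 0.23 at day 10, adjusted p = 0.000902).

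Of 34 other chemokine ligands 9 were tested. In BT474 at day 10, 3 rose and none fell, beside 12.2% of all genes called, with a median log2 fold change of 0.769 against 0 over all genes. CXCL12, the ligand of CXCR4 and ACKR3, had 18.4 and 29.3 CPM in the monolayer, 65.2 and 61.0 CPM at day 10, and 51.9 and 55.6 CPM at day 20. Its log2 fold change at day 10 was 1.40 ± 0.18 (adjusted p = 0.000331), and CCL22, a CCR4 ligand, gave 1.61 (adjusted p = 0.0313). In HCC1806 CCL22 was the 1 ligand called at day 10, with 1.58 and 0 CPM in the monolayers, 28.2 and 30.2 CPM at day 10, and 11.5 and 6.2 CPM at day 20; it fell between day 10 and day 20 by 1.72 on the log2 scale (adjusted p = 0.00428). In HCC1806 against ZR-75-30, 3 were called higher and 2 lower, beside 39.0% of all genes called, and in CAL148 against BT474 none was called higher and 4 lower, beside 24.0%.

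Genes of the NF-kB pathway and of the receptors above it moved in part in HCC1806. Of 18 NF-kB subunit and feedback genes, all tested, 3 rose and 1 fell at day 10 (median 0.514 against 0 over all genes), and 4 rose and 1 fell at day 20 (median 0.467). Of all genes 8.72% were called at day 10 and 11.1% at day 20, the shares beside which the spheroid counts of this and the next 2 lists are to be read. The NF-kB genes called included REL, a subunit (2.25, adjusted p = 0.0341 at day 10), and BIRC3, a feedback target (1.97, adjusted p = 0.0263), with NFKBIB, an inhibitor, lower (-1.72, adjusted p = 0.012). Of 24 tested upstream cytokine and Toll-like receptor genes, 6 rose and none fell at day 10 (median 0.522), among them TLR5, the flagellin receptor (2.59, adjusted p = 0.00803), and TLR2 (2.47, adjusted p = 0.0437). At day 20, 5 rose and 1 fell, LTBR at -0.71 (median 0.329). Of 16 tested inflammatory cytokines 1 rose at day 10, IL1RN, the interleukin 1 receptor antagonist (1.09, adjusted p = 0.0486), with a median of -0.472 over the list. In HCC1806 against ZR-75-30, 9 of the 16 were called higher and none lower, beside 39.0% of all genes called and 22.8% called higher (median 3.47, against 0.216 over all genes), with IL1A at 18.1 CPM on average against 0. In BT474 at day 10, 2 of the 18 NF-kB genes rose and 1 fell, 1 of the 24 receptor genes rose and 2 fell. Of the 16 cytokines 1 rose, all beside 12.2% of all genes called. TLR5 and IL1RN were also called higher in BT474 at day 20 over the monolayer (1.81 and 0.66), where REL, BIRC3, NFKBIB, TLR2 and LTBR were not called. These counts share the monolayer libraries with the member values and were not compared with them by a test.

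Proteases that process chemokines included 3 called higher and 2 lower of 11 tested in HCC1806 at day 20 against day 10, beside 6.80% of all genes called, with a median log2 fold change of 0.206. MMP1, an interstitial collagenase, gave 3.20 (adjusted p = 0.000129) and MMP13, another collagenase, 1.61 (adjusted p = 1.25e-06), while MMP2 gave -1.0 and CTSD -0.89. Leukocyte markers are given because leukocytes make several members. In HCC1806 the 10 markers summed to 9.74 and 1.47 CPM in the monolayers, 4.95 and 4.58 CPM at day 10, and 5.44 and 5.65 CPM at day 20, with MS4A1 at 0 in all 6. In BT474 they summed to 1.02 and 0.683 CPM in the monolayer, 16 and 19.1 CPM at day 10, and 25.2 and 24.3 CPM at day 20. LYZ, lysozyme, which glandular epithelium also makes, made up nearly all of the BT474 spheroid sum, while PTPRC had 0 counts in all 6 BT474 libraries. The 5 endothelial markers summed to at most 3.29 CPM in HCC1806. The part of these genes in the member values was not tested.

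The genes whose log2 CPM followed each member most closely over the 16 libraries, out of 15585 protein-coding genes, are given as a description, since libraries of 1 line share much of their variation. CXCL14 was most like ATP12A, a proton pump (Pearson r = 0.914), SHE (0.907) and ADGRB1 (0.89). CXCL1 was most like PIM1, a kinase (0.985), CACNA1F (0.985) and VSNL1 (0.984), and CXCL8 like IL1RAPL1 (0.98), GIPC3 (0.973) and SLC52A1 (0.973). CXCL2 was most like ENKD1 (0.982), NEXN (0.977) and NFE4 (0.975), and CXCL3 like NFE4 (0.988), WNT10A (0.986) and TNFAIP2 (0.984). CXCL5 was most like MOG (0.982), and CXCL10 like S100A8 (0.95) and S100A9 (0.944), the calprotectin subunits. CXCL16 was most like CLNS1A (0.975), CCL20 like ABCA6 (0.994) and CCL28 like IL20RA (0.99). Between members r was 0.971 for CXCL1 and CXCL8, 0.418 for CXCL10 and CXCL14, and 0.29 for CCL28 and CXCL14.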

How the data were processed

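The deposited gene counts rest on HISAT2 2.2.1, featureCounts 2.0.6 and the genome build GRCh38, per the submitters' processing notes. Whether counting used strand or multiply aligned reads is not given in the sources used here. The authors deposited raw counts. Of the 102 nonzero counts of the 10 genes 71 were even, a pattern that counting each mate of a read pair would give, so counting intervals are too narrow; intervals and floors cover counting error only. Sample titles gave the groups, since the treatment field reads monolayer throughout. The deposited FPKM file was not used here.

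Counts were scaled by TMM, filtered by filterByExpr (minimum count 10, total 15) and tested by robust quasi-likelihood F tests in edgeR 4.0.16 under R 4.3.3, with limma 3.58.1 and DESeq2 1.42.0 as alternatives; figures used matplotlib 3.10.9. HCC1806 against its monolayer and the line differences were fitted on 12 libraries (20929 genes). HCC1806 day 20 against day 10 and the BT474 comparisons were fitted on 10 libraries without the HCC1806 monolayers (20606 genes), and monolayers of different lines on all 16 (21700 genes). A gene was called at a Benjamini-Hochberg adjusted p under 0.05 over all genes tested. All 10 genes passed the filter in each fit, most of them through HCC1806 alone. Levels are CPM with TMM factors of all 16 libraries. Both spheroid ages share the monolayer libraries of their line. The members and the 14 gene lists (226 genes) were chosen with earlier results of these data known. The results of 1 list are not reported here. From each list the called genes with the 2 highest and 2 lowest changes could be named, and for each member the 3 most correlated genes; others named with values, such as CXCR2, ADAM10 and IL1A, were chosen for their tie to a member or after their values were seen. Alternatives were another scaling, no filter, DESeq2, limma-voom, a replicate block, other sets of libraries and leaving out each library. Programs were tested on simulated data.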

Additional observations from a re-analysis of the deposited data

Results flagged for a closer look

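The difference between HCC1806 and BT474 in the day 20 effect on CXCL14 was 13.07 ± 2.17 on the log2 scale. It was picked out because the interaction test of the 12-library fit passed the threshold: the HCC1806 spheroids had 46246 counts at day 20 against 17 in the monolayer, and the BT474 spheroids 2 counts against 11. The value contains the contrast for which CXCL14 was known, so passing the threshold is no independent support. The BT474 side rests on those few counts.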

How the results depend on the processing

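Counts of the 10 genes called moved with the setting as follows, leaving out HCC1806 at day 20 over the monolayer, which is given as a description. Without the filter on low counts, 3 were called in HCC1806 at day 10 over the monolayer and 5 in CAL148 against BT474. That setting called 1 in BT474 at day 10 over the monolayer (9.03% of all genes) and 1 in BT474 at day 20 over day 10. For the line difference at day 10 it called 1 (3.79%). DESeq2 called 2 in HCC1806 at day 10 over the monolayer, 1 in BT474 at day 20 over day 10 and 4 in CAL148 against BT474. Limma-voom with quality weights called 0 for the line difference at day 20 (0.0526% of all genes) and 0 in HCC1806 against ZR-75-30 (7.92%). Counts halved for possible double counting of mates, a setting chosen after seeing the data, gave 1 in HCC1806 at day 10 over the monolayer and 1 in BT474 at day 20 over day 10. A fit of all 16 libraries called 0 for the line difference at day 20 (0.392% of all genes). The 12-library fit called 0 in HCC1806 at day 20 over day 10 (0 of all 20929 genes) and 0 in BT474 at day 20 over the monolayer (0.234%). HCC1806 alone gave 2 at day 20 over day 10 (10.2%). A fit of the 8 monolayer libraries called 0 in CAL148 against BT474 and 4 in HCC1806 against ZR-75-30 (20.5% of all genes). Shares of all genes called moved too. In HCC1806 at day 10 and day 20 over the monolayer they were 9.30% and 10.7% without the filter, 20.7% and 22.4% by DESeq2 and, at day 10, 11.6% with halved counts. For BT474 at day 20 over day 10 they were 1.05%, 1.32% and 0.513% under these settings, and for CAL148 against BT474 15% without the filter, 30.8% by DESeq2 and 6.37% over the monolayers alone. The cause of these moves was not tested.

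Leaving out each library in turn changed the number of members called in most comparisons, and the share of all genes called moved as well. Each such fit leaves 1 library in a group, so nothing is read from these counts. Without HCC1806 monolayer replicate 1, CXCL16 had the other sign at day 10 (0.87), at day 20 (0.80) and in the line difference at day 10 (1.09), and so did CCL20 at day 20 (3.13); over all libraries left out the ranges were -1.04 to 0.87, -1.11 to 0.80, -0.81 to 1.09 and -1.76 to 3.13.

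Replicate numbers are not said to pair samples, and deviations of same-numbered libraries correlated at -0.45 between HCC1806 and ZR-75-30 monolayers, -0.125 between HCC1806 monolayer and day 20 and within ±0.104 otherwise. With the number as a replicate block the members' count of calls stayed at 0 in HCC1806 at day 10 over the monolayer (6.78% of all genes). It stayed at 7 in HCC1806 against ZR-75-30 (35.2%), and crossed numbers gave 7 there (37.5%). Over all genes the block called 98 instead of 282 for the line difference at day 10 and 248 instead of 580 at day 20. Over all genes DESeq2 called 4323 at day 10 and 4694 at day 20 in HCC1806 over the monolayer, no filter 3406 and 3930 and limma-voom 59 and 74, against 1826 and 2322. Groups of 2 libraries and, outside HCC1806, members with counts at or under the floor limit what can be detected.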
